A study of Mus musculus with 49 samples.

Results

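Among 24 older mouse hippocampus libraries, the 8 with the highest level of Ttr, the transthyretin gene, were set against the 8 with the lowest. They are 16 of the 24 older libraries and of 49 libraries in all, and are called Ttr-rich and Ttr-poor below. The ranking used CPM, the count of a gene over the reads on genes in M (mega), and the fit that compares them carries the study's group as a covariate. Ttr chose the libraries, so its level and the levels of all other genes in the Ttr-rich over Ttr-poor comparison are given as a description. Counts of genes past edgeR's threshold there are printed beside the share over all genes, with no p-value, and nothing is read from them as a test.

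The study sequenced polyadenylated RNA of untreated mouse hippocampus in knockouts of the endophilin A genes, which encode membrane-bending proteins of synaptic vesicle endocytosis. The older samples, labelled postnatal day 13 to 21, were endophilin A1 and A2 double knockouts (DKO, n = 7), littermate controls (KOWT, n = 7) and wild type controls (WT-DKO, n = 10). The newborn samples, labelled postnatal day 0, were endophilin A1, A2 and A3 triple knockouts (TKO, n = 9), littermate controls (KOWTKO, n = 8) and wild type controls (WT-TKO, n = 8). Another label calls the older mice newborn too; their ages here follow the age field. The labels do not state that replicates are different animals, so each p-value is set against a spread among libraries that may be technical. Sh3gl1, the endophilin A2 gene, had 0.356 to 1.11 CPM in DKO, against 52.7 to 63.0 CPM in KOWT and 53.2 to 60.7 CPM in WT-DKO libraries. Sh3gl2, the endophilin A1 gene, was low in the littermate controls as well: it had 36.2 to 41.5 CPM in DKO, 36.8 to 40.0 CPM in KOWT and 368 to 443 CPM in WT-DKO libraries. In newborn libraries Sh3gl1 had 0.468 to 1.39 CPM in TKO, 33.7 to 81.4 CPM in KOWTKO and 67.0 to 79.7 CPM in WT-TKO. Newborn Sh3gl2 had 11.1 to 28.7 CPM in TKO, 10.5 to 26.5 CPM in KOWTKO and 167 to 241 CPM in WT-TKO libraries. Newborn Sh3gl3, the endophilin A3 gene, had 0.0681 to 0.428 CPM in TKO, 0.0432 to 0.484 CPM in KOWTKO and 57.1 to 66.6 CPM in WT-TKO libraries, so the newborn littermate controls were low in Sh3gl2 and Sh3gl3. At the older age Sh3gl3 lay under 20 CPM in 5 libraries, of which 2 were Ttr-rich and 2 Ttr-poor. Reads on genes ran from 13.5 to 40.5 M (mega) in Ttr-rich and from 16.2 to 57.0 M in Ttr-poor libraries.

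The choroid plexus is a sheet of epithelial cells over a vascular stroma that hangs into the brain ventricles, and that of the lateral ventricle lies next to the hippocampus. Its epithelium secretes cerebrospinal fluid by moving ions and water, and it is the main site of transthyretin synthesis in the brain. Transthyretin carries thyroxine and, through a partner protein, retinol.

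Ttr had 949 to 5933 CPM (median 2419) in the Ttr-rich libraries, against 1.58 to 9.84 CPM (median 3.68) in the Ttr-poor libraries. The highest was WT-DKO replicate 9, in which Ttr took 0.593% of all reads on genes. The last library inside the upper limit was DKO replicate 2 with 949 CPM, and the first outside it was KOWT replicate 3 with 711 CPM. At the lower limit, KOWT replicate 6 with 9.84 CPM was inside and WT-DKO replicate 5 with 11.2 CPM was outside. The widest step in the ranking lay elsewhere, between 711 CPM and the 29.7 CPM of WT-DKO replicate 6, so that 9 libraries stood above it and 15 below. The Ttr-rich libraries were 4 DKO, 2 KOWT and 2 WT-DKO, and the Ttr-poor libraries were 4 KOWT and 4 WT-DKO. No DKO library was Ttr-poor, so with group as a covariate the DKO libraries inform the spread but not the difference.

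**Figure D1:**
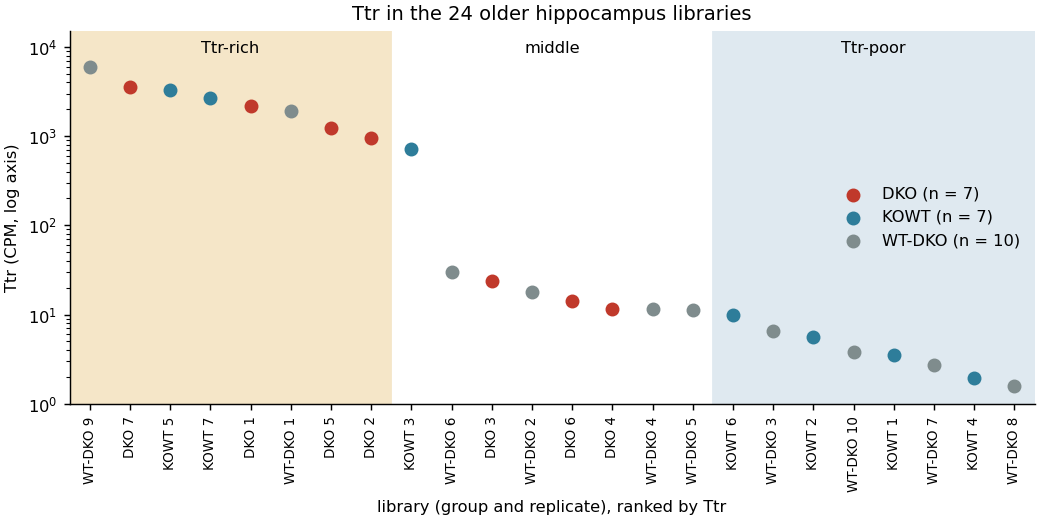
Ttr level (CPM, log axis) in each of the 24 older libraries, ranked from highest to lowest and coloured by group, with the 8 Ttr-rich and 8 Ttr-poor libraries shaded. The levels fall in a high set of 9 libraries at 711 CPM and above and a low set of 15 libraries at 29.7 CPM and below, and all 3 groups have libraries in each set.

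Genes of the choroid plexus epithelium were higher with Ttr in the Ttr-rich libraries. Of 44 such genes listed besides Ttr, all of which passed the filter on low counts, 38 were higher in Ttr-rich than in Ttr-poor libraries with edgeR at an adjusted p under 0.05, and none was lower. Across all 16496 genes tested, 227 were higher (1.38%) and 2 were lower (0.0121%). Listed genes near 0 in every Ttr-poor library, such as Slc4a5, Kcne2 and Tmem72, passed the filter on low counts only through the Ttr-rich libraries. For them no call but a higher one was possible. The median log2 difference of the 44 genes was 2.82, against 0.01 over all genes. For 34 of the 44, every Ttr-rich library lay above every Ttr-poor library, as it did for 0.667% of all genes tested. In a bulk sample, fewer cells of a type and less RNA per cell cannot be told apart. Without WT-DKO replicate 9, the count over all genes was 95 and 33 of the 44 were still higher.

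**Figure D2:**
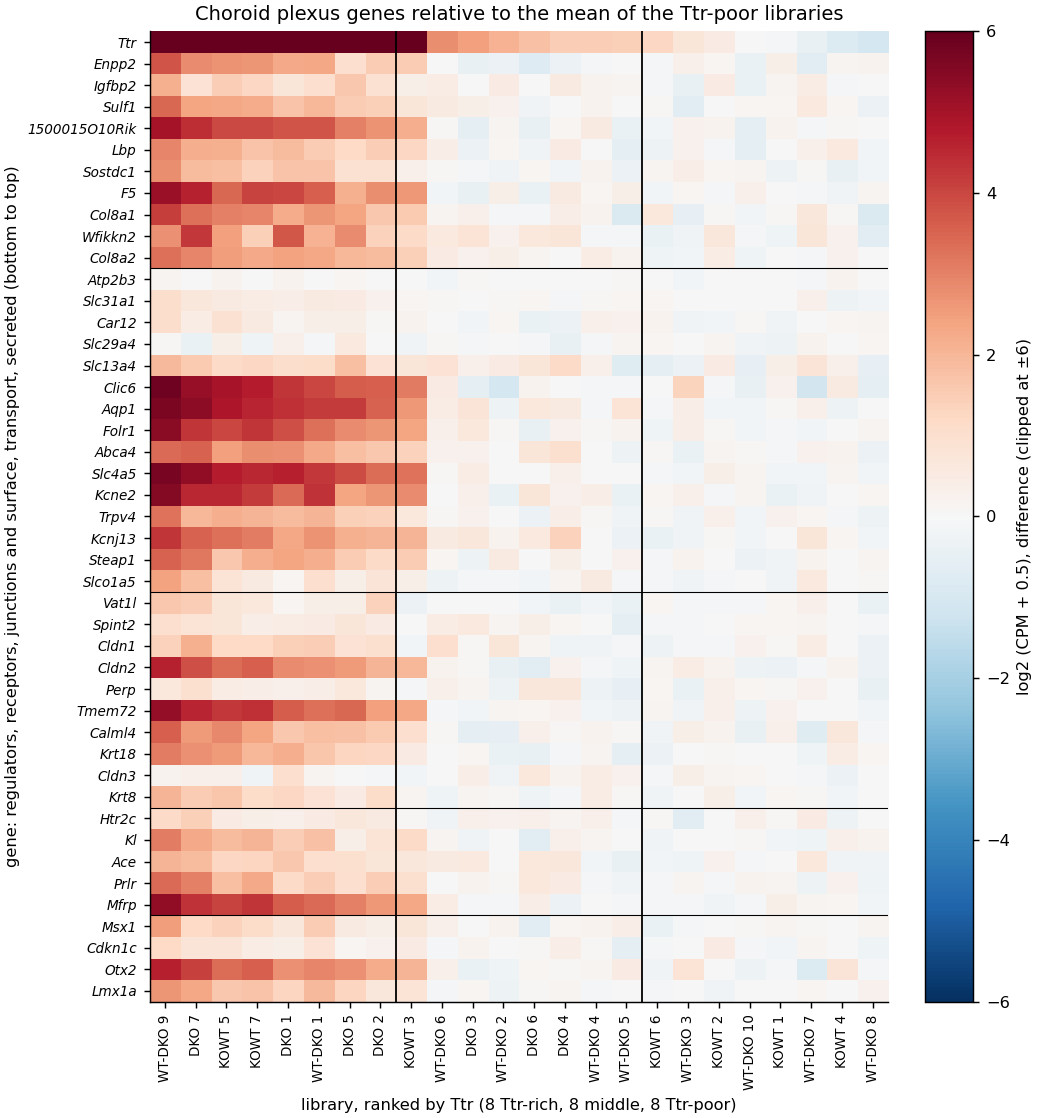
Level of each listed choroid plexus gene, as the difference in log2 (CPM + 0.5) from the mean of the 8 Ttr-poor libraries (colour, clipped at 6 in either direction), in the 24 older libraries ranked by Ttr. Genes are grouped from top to bottom as secreted, transport, junction and surface, receptor and regulator genes. The 8 Ttr-rich libraries and KOWT replicate 3 are red for most genes, and the other middle libraries resemble the Ttr-poor ones.

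All 11 secreted and carrier genes were higher in Ttr-rich libraries, with a median log2 difference of 2.90. This count and this median include Ttr, which is higher there because it chose the libraries. Enpp2, which encodes autotaxin, the enzyme that makes lysophosphatidic acid, had 427 to 2881 CPM (median 1179) in Ttr-rich libraries, against 135 to 270 CPM (median 232) in Ttr-poor libraries. The libraries did not overlap and the log2 difference was 2.90 ± 0.33 (SE). Enpp2 lies on the minus strand of chromosome 15 from 54838901 to 54952892 (GRCm38), and shares exons with Gm26684. The deposited counts keep ambiguous reads on a separate line, and how reads of the shared exons were assigned is not stated. Igfbp2, an insulin-like growth factor binding protein, had 33.8 to 90.9 CPM (median 44.6) in Ttr-rich libraries, against 14.8 to 28.0 CPM (median 19.0) in Ttr-poor libraries, a log2 difference of 1.51 ± 0.23. The steepest differences in this group after Ttr were those of F5, coagulation factor V, at 4.78 ± 0.42 and of 1500015O10Rik, the gene of the peptide augurin, at 4.60 ± 0.32. The collagen VIII genes Col8a1 and Col8a2 differed by 3.53 ± 0.38 and 2.90 ± 0.23, the heparan sulfatase gene Sulf1 by 2.65 ± 0.27, and the BMP antagonist gene Sostdc1 by 2.05 ± 0.22. Wfikkn2 differed by 2.49 ± 0.47 and Lbp, the lipopolysaccharide-binding protein gene, by 2.22 ± 0.26. None of these genes had a Ttr-rich library at the level of a Ttr-poor one.

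Of the 15 transport genes, 13 were higher, with a median log2 difference of 3.09. Aqp1, the water channel of the epithelium's ventricular face, had 9.47 to 43.3 CPM (median 18.9) in Ttr-rich libraries, against 0.203 to 0.659 CPM (median 0.342) in Ttr-poor libraries. Its log2 difference was 6.07 ± 0.36, and the lowest Ttr-rich library was well clear of the highest Ttr-poor one. Clic6, a chloride intracellular channel family gene, had 15.5 to 74.7 CPM (median 29.5) in Ttr-rich libraries, against 0.123 to 2.81 CPM (median 0.813) in Ttr-poor libraries, a difference of 5.35 ± 0.50. The sodium bicarbonate cotransporter gene Slc4a5 had the widest difference of the listed genes other than Ttr, at 7.10 ± 0.46, and was near 0 in Ttr-poor libraries at 0.0616 to 0.313 CPM. Other steep differences were those of Kcne2, a potassium channel beta subunit, at 6.57 ± 0.45, of Folr1, the folate receptor, at 5.22 ± 0.40, and of the potassium channel gene Kcnj13 at 4.75 ± 0.41. The metalloreductase gene Steap1, the lipid transporter gene Abca4, the cation channel gene Trpv4 and the organic anion transporter gene Slco1a5 differed by 4.09 ± 0.45, 3.09 ± 0.33, 2.84 ± 0.23 and 2.80 ± 0.54, and of these only Slco1a5, at most 3.00 CPM, had overlapping libraries.

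The sulfate transporter gene Slc13a4 differed by 1.36 ± 0.28, with no overlap between the libraries. The other 4 transport genes, each at a high level in the Ttr-poor libraries, differed little. Slc31a1, a copper transporter, had 53.5 to 95.3 CPM (median 64.7) in Ttr-rich libraries, against 36.4 to 56.3 CPM (median 45.2) in Ttr-poor libraries, and differed by 0.63 ± 0.11 with overlapping ranges. The carbonic anhydrase gene Car12 differed by 0.71 ± 0.12. The genes not called were Atp2b3, a plasma membrane calcium pump, with 209 to 252 CPM in Ttr-rich and 190 to 247 CPM in Ttr-poor libraries, and the monoamine transporter gene Slc29a4, with 29.9 to 59.8 CPM in Ttr-rich and 31.9 to 45.4 CPM in Ttr-poor libraries. Their log2 differences were 0.05 ± 0.07 and 0.02 ± 0.16.

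Of the 10 junction, keratin and surface genes, 7 were higher. Tmem72, a transmembrane protein gene, had 2.91 to 23.5 CPM (median 9.24) in Ttr-rich libraries, against 0 to 0.261 CPM (median 0.112) in Ttr-poor libraries, a log2 difference of 6.73 ± 0.52. The tight junction genes differed unequally: Cldn2, the claudin of leaky epithelia, by 4.24 ± 0.38, Cldn1 by 1.34 ± 0.19, and Cldn3, which was not called, by 0.15 ± 0.36. The simple-epithelium keratins Krt18 and Krt8 differed by 3.72 ± 0.41 and 3.51 ± 0.44. Calml4, a calmodulin-like gene, differed by 3.19 ± 0.35 and the protease inhibitor gene Spint2 by 0.68 ± 0.11. Vat1l was not called at 0.89 ± 0.26, with 45.9 to 131 CPM in Ttr-rich and 32.2 to 53.6 CPM in Ttr-poor libraries, nor was the desmosome gene Perp at 0.49 ± 0.17.

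Among 5 receptor and surface enzyme genes, 4 were higher. Kl, the gene of klotho, a co-receptor for a fibroblast growth factor, had 17.5 to 116 CPM (median 49.6) in Ttr-rich libraries, against 11.0 to 16.7 CPM (median 13.7) in Ttr-poor libraries, a difference of 2.28 ± 0.29. Mfrp, a frizzled-related membrane protein gene, differed by 5.37 ± 0.39, the prolactin receptor gene Prlr by 2.49 ± 0.39, and the angiotensin-converting enzyme gene Ace by 1.43 ± 0.22. Htr2c, a serotonin receptor gene also used by neurons, had 73.6 to 161 CPM (median 86.7) in Ttr-rich libraries, against 38.1 to 84.1 CPM (median 62.7) in Ttr-poor libraries, and was not called at 0.59 ± 0.20. All 4 regulator genes were higher. The homeobox gene Otx2, needed for choroid plexus development in the mouse, had 4.20 to 24.8 CPM (median 8.45) in Ttr-rich libraries, against 0.0616 to 1.25 CPM (median 0.426) in Ttr-poor libraries, a difference of 4.47 ± 0.48. The homeobox genes Lmx1a and Msx1 differed by 3.47 ± 0.33 and 1.78 ± 0.20, and the cell cycle inhibitor gene Cdkn1c by 0.88 ± 0.16.

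KOWT replicate 3, the library just outside the upper limit, had choroid plexus genes above the Ttr-poor ranges. Its 10.9 CPM of Clic6, 4.70 CPM of Aqp1 and 4.53 CPM of Mfrp lay below the lowest Ttr-rich library, and its 617 CPM of Enpp2 lay within the Ttr-rich range. In the other 7 middle libraries Clic6 ran from 0.13 to 1.39 CPM and Aqp1 from 0.20 to 1.04 CPM, within or close to the Ttr-poor ranges. With the 9 libraries above the step set against the 15 below it, 40 of the 44 genes were higher and 0 lower. Over all genes, that split called 319 higher and 21 lower. A slope on log2 Ttr over all 24 older libraries, again a description, was positive and called for 40 of the 44, against 2.53% of all genes called in either direction, 2.35% with a positive and 0.181% with a negative slope.

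How evenly the genes followed Ttr was described in the 9 libraries above the step. For each gene, the mean of the 15 lower libraries was subtracted and the excess was divided by the excess of Ttr. Mfrp had 4.76 to 6.84 CPM of excess per 1000 CPM of Ttr, a 1.44-fold range over the 9 libraries. The range was 1.46-fold for 1500015O10Rik, 1.50-fold for Clic6, 1.52-fold for Folr1 and Cldn2 and 1.60-fold for Slc4a5. The excess of Wfikkn2, which encodes a secreted protein with protease inhibitor domains, varied 9.77-fold. It was lowest in KOWT replicate 7 with 1.34 CPM and highest in DKO replicate 1 with 13.1 CPM. The range was 22.3-fold for Slco1a5, whose level was low, 8.19-fold for Cdkn1c, 7.92-fold for Igfbp2, 7.83-fold for Car12 and 7.62-fold for Kl. For 8 genes, among them Atp2b3, Slc29a4, Cldn1, Cldn3 and Htr2c, the excess was negative in at least 1 library and no range was taken.

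Markers of other cell types moved less or were not called. Counts here and in the lists below stand against 1.38% higher and 0.0121% lower over all genes tested. Of 21 ependymal and motile cilia genes tested, 7 were higher and none lower, with a median log2 difference of 0.77. Their summed level ran from 89.2 to 176 CPM (median 130) in Ttr-rich libraries, against 74.7 to 111 CPM (median 95.2) in Ttr-poor libraries, so the ranges overlapped. The steepest were the axoneme gene Spag16 at 1.61 ± 0.34 and Cfap126 at 1.61 ± 0.27, while Foxj1, the master regulator of motile cilia, was not called, with 9.48 to 20.6 CPM in Ttr-rich and 5.85 to 13.5 CPM in Ttr-poor libraries. Their part in the choroid plexus differences was not tested.

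Of 18 meningeal and fibroblast genes, Ogn and Lum, both small matrix proteoglycan genes, were higher, at 1.06 ± 0.25 and 0.87 ± 0.17. The summed level of this list was 615 to 1605 CPM (median 837) in Ttr-rich libraries, against 368 to 976 CPM (median 592) in Ttr-poor libraries. Among endothelial genes 1 of 13 was higher, Slco1c1, a thyroxine transporter gene, at 0.52 ± 0.09. Among striatal genes 1 of 8 was higher, Ppp1r1b, which encodes a dopamine-regulated phosphatase inhibitor, at 0.53 ± 0.13. In alternative fits Ppp1r1b passed the threshold in 6 and fell short in 21, and Ogn passed in 9 and fell short in 18. Slco1c1 passed in 23 and fell short in 4.

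No gene was called among 8 pericyte and smooth muscle, 7 border macrophage, 12 microglia, 5 red blood cell, 14 thalamus and habenula, 12 astrocyte, 16 oligodendrocyte and 9 oligodendrocyte precursor genes. The same held for 10 general neuron and 10 proliferation genes and for the 5 endophilin genes. None of the 20 hippocampal excitatory neuron genes was called, and their summed level was 6467 to 8881 CPM (median 7775) in Ttr-rich libraries, against 7255 to 9446 CPM (median 8120) in Ttr-poor libraries. Wfs1, a marker of hippocampal pyramidal cells, had 70.3 to 248 CPM (median 160) in Ttr-rich libraries, against 193 to 295 CPM (median 258) in Ttr-poor libraries, and a log2 difference of -0.30 ± 0.15 with group in the fit. The summed level of myelin genes overlapped, at 4492 to 21612 CPM in Ttr-rich and 7127 to 16881 CPM in Ttr-poor libraries.

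**Figure D3:**
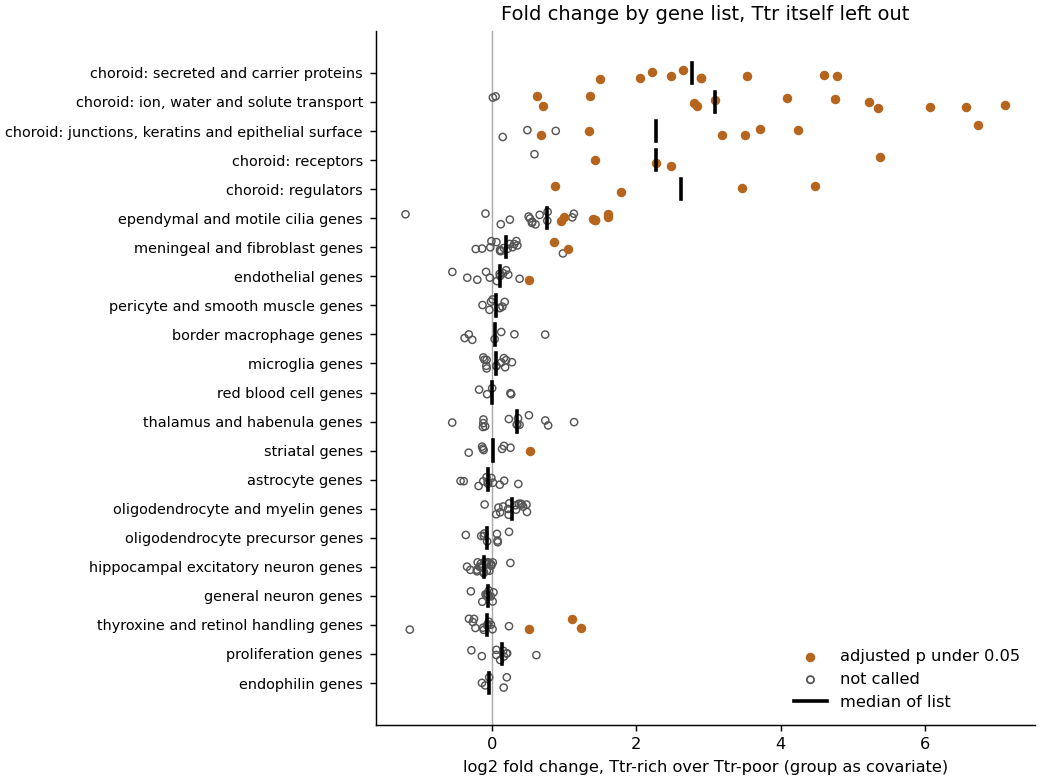
Log2 fold change, Ttr-rich over Ttr-poor libraries with group as a covariate, for each gene of the listed cell types and functions (points, filled where the adjusted p was under 0.05), with the median of each list as a bar. Ttr is left out. The 5 choroid plexus lists have medians between about 2.27 and 3.09 and extend past 7, whereas the ependymal list has a median of 0.77 and the other lists have medians of at most 0.35.

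Of 17 thyroxine and retinol handling genes, 3 were higher, among them Slco1c1 and the retinol dehydrogenase gene Rdh5 at 1.24 ± 0.17. Rdh5 shares exons with Bloc1s1. Dio3, the deiodinase that inactivates thyroid hormone, had 0.736 to 4.07 CPM (median 2.27) in Ttr-rich libraries, against 0.659 to 6.22 CPM (median 5.22) in Ttr-poor libraries, and was not called at -1.13 ± 0.50.

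Outside the lists, among called genes with a mean log2 CPM of 1 or more, the steepest difference was that of Prr32, a proline-rich protein gene, with 1.62 to 12.98 CPM (median 5.14) in Ttr-rich libraries, against 0 to 0.139 CPM (median 0.0519) in Ttr-poor libraries, at 6.76 ± 0.49. Prr32 too passed the filter on low counts only through the Ttr-rich libraries. It was followed by Wdr86 at 3.57 ± 0.36 and then by Drc7, a dynein regulatory complex gene. Below Drc7 came the basement membrane collagen gene Col4a3 at 2.23 ± 0.31 and the semaphorin gene Sema3b at 2.03 ± 0.23. Drc7 had 2.89 to 19.9 CPM (median 6.29) in Ttr-rich libraries, against 1.06 to 2.88 CPM (median 2.12) in Ttr-poor libraries. Epn3, an endocytic adaptor gene of the epsin family, differed by 1.97 ± 0.22, with 3.28 to 12.1 CPM in Ttr-rich and 1.29 to 2.19 CPM in Ttr-poor libraries. The glucose transporter gene Slc2a12, which shares exons with Tbpl1, differed by 1.90 ± 0.24. Of all called genes, Hif3a, a hypoxia-inducible factor subunit gene, was one of the 2 that were lower, at -1.43 ± 0.32. In alternative fits Hif3a passed the threshold in 9 and fell short in 18. Its levels overlapped, with 2.45 to 16.8 CPM (median 8.64) in Ttr-rich and 3.33 to 20.4 CPM (median 9.04) in Ttr-poor libraries, and the difference is that within groups. The other was Pkp1, a desmosome gene under that level and named after its value was seen, with at most 0.204 CPM in Ttr-rich and at most 0.648 CPM in Ttr-poor libraries, at -3.17 ± 0.76.

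The 25 newborn libraries did not enter the ranking, so they allow a test of which genes follow Ttr. Ttr there had 6.35 to 150 CPM (median 28.3) in TKO, 5.26 to 24.3 CPM (median 13.6) in KOWTKO and 27.5 to 1102 CPM (median 90.2) in WT-TKO libraries. A slope of log2 level on log2 Ttr was fitted for 16400 genes with group as a covariate and tested with edgeR. WT-TKO replicate 8 stood apart in myelin genes, with a mean log2 CPM of 4.82, against 1.36 to 1.93 in the other newborn libraries. It was also the newborn library highest in Wfs1, Gjb6, Ppp1r1b and Tcf7l2, genes of other lists, at 40.2, 10.7, 32.9 and 16.6 CPM. The slope was called for 12 genes (0.0732%), all positive, and 2035 genes had an unadjusted p under 0.05. Of the 12, 11 were listed choroid plexus genes, out of 43 that passed the filter, and 36 of the 43 slopes were positive. The other called gene was Nqo1, a quinone reductase gene, with a slope of 0.24 ± 0.04 (adjusted p = 0.0163).

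Tmem72 had the steepest called slope, 0.79 ± 0.08 per log2 of Ttr (adjusted p = 6.6e-07). Aqp1 had 29.0 CPM in WT-TKO replicate 7, against 0.55 to 3.75 CPM in the other 24 newborn libraries, and a slope of 0.69 ± 0.07 (adjusted p = 6.6e-07). Clic6 had 27.6 CPM in that library, against 1.05 to 5.11 CPM in the others, and a slope of 0.57 ± 0.06 (adjusted p = 1.89e-06). Most of these levels were low in every other newborn library. Slopes were also called for Slc4a5 (0.54 ± 0.06), Folr1 (0.40 ± 0.05), Krt18 (0.55 ± 0.07), Kcnj13 (0.72 ± 0.09), Kcne2 (0.59 ± 0.08), Wfikkn2 (0.49 ± 0.06), Mfrp (0.37 ± 0.06) and Cldn2 (0.31 ± 0.05), with adjusted p-values of at most 0.00636.

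These calls depended on WT-TKO replicate 7, which had 1102 CPM of Ttr, against 214 CPM in the next highest newborn library. Without it 4 genes were called, namely Tmem72, Aqp1, Clic6 and Folr1, with slopes of 0.76, 0.43, 0.39 and 0.25. In TKO and KOWTKO libraries alone Aqp1 was called, with a slope of 0.47, and in WT-TKO libraries alone Clic6, Kcne2 and Tmem72 were called. Without WT-TKO replicate 8, 11 genes were called, 10 of them listed choroid plexus genes. Leaving out TKO replicate 7 instead gave 26 called genes, 11 of them listed choroid plexus genes.

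**Figure D4:**
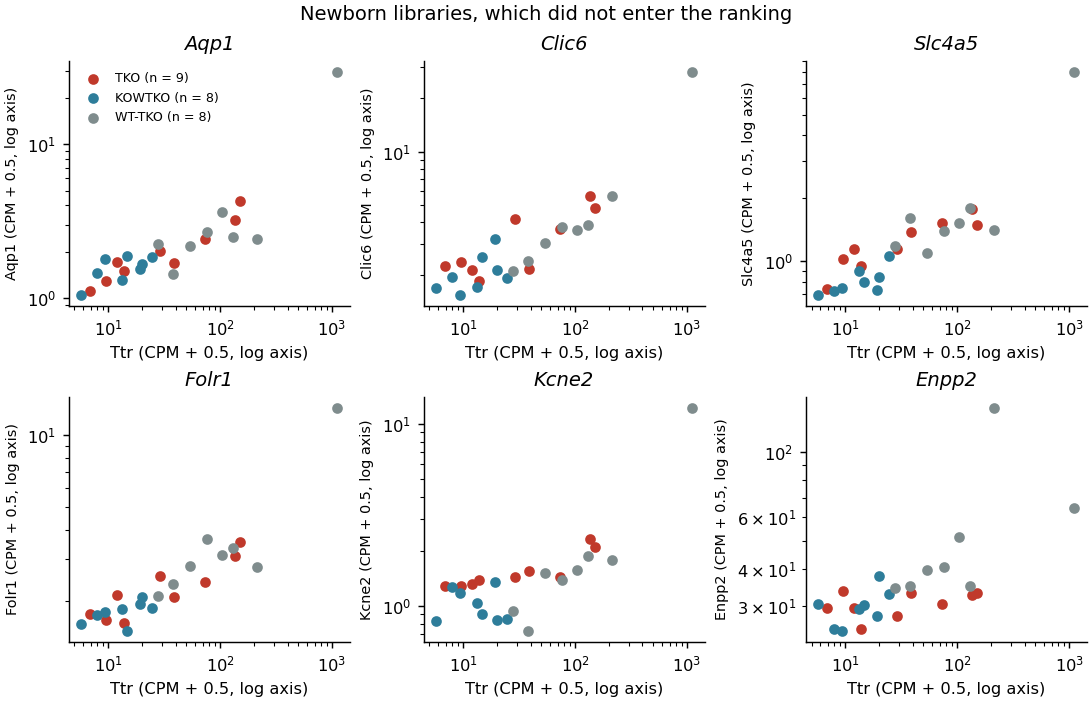
Levels of 6 choroid plexus genes against Ttr (both CPM + 0.5, log axes) in the 25 newborn libraries, coloured by group. WT-TKO replicate 7, at 1102 CPM of Ttr, is the rightmost point in each panel and the highest in each but that of Enpp2, where WT-TKO replicate 8 has 140 CPM.

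Several genes that stood out in the older libraries were not called in newborn ones. Enpp2 had a slope of 0.16 ± 0.06 (adjusted p = 0.317), with its highest newborn level, 140 CPM, in WT-TKO replicate 8, which had 214 CPM of Ttr, and 64.3 CPM in WT-TKO replicate 7. Kl and Prlr were also highest in WT-TKO replicate 8, at 5.49 and 2.52 CPM. The part of that library's differences in myelin and other genes in these slopes was not tested. The slopes of Otx2 (0.10 ± 0.07), Kl (0.21 ± 0.11), Prlr (-0.11 ± 0.11) and Calml4 (0.06 ± 0.07) were not called. None of the 4 regulator genes and none of the 22 ependymal and cilia genes was called. Whether the slopes differ between the ages was not tested. Of the 226 genes higher in older Ttr-rich libraries besides Ttr, 199 were tested in newborn libraries, and 11 were called there. Those 11 are 4.87% of the older list and 91.7% of the newborn list. Positive newborn slopes were found for 64.3% of the 199, against 49.8% of all genes tested.

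**Figure D5:**
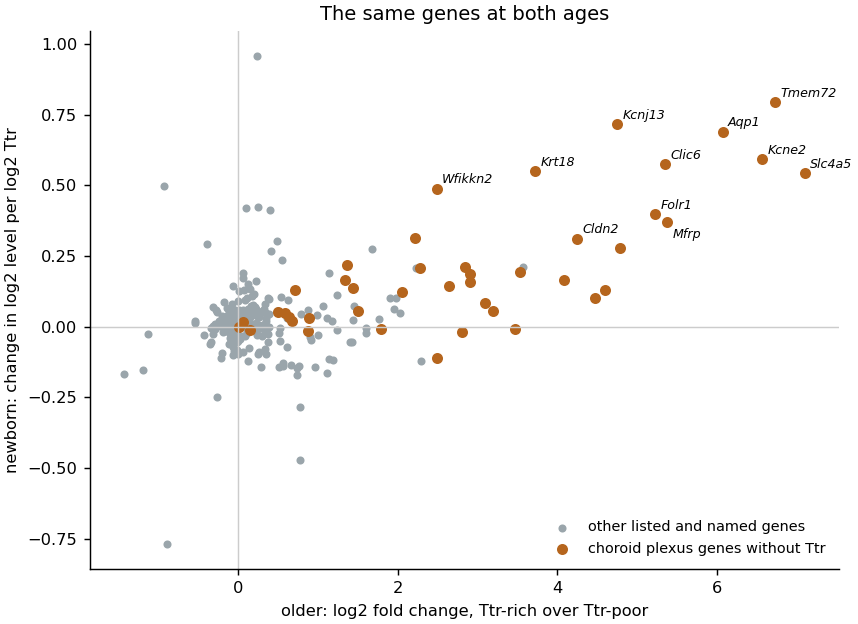
Newborn slope (change in log2 level per log2 of Ttr) against the log2 fold change of Ttr-rich over Ttr-poor older libraries, for the listed and named genes. Choroid plexus genes without Ttr are brown, and the 11 called in newborn libraries are labelled where they lie, at positive values on both axes.

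The promoters of the genes with the smallest newborn p-values were read from RefSeq (GRCm38.p6), as 250 bases before to 50 bases after the start. They are shown because these genes moved together with Ttr at both ages. The rule chose Tmem72, Aqp1 and Clic6. Capitals mark GTTGCC, a part of the site bound by the RFX factors of ciliated cells. Each line runs 5′ to 3′ on the gene's own strand.
Tmem72, chr6:116716709-116717008, minus strand: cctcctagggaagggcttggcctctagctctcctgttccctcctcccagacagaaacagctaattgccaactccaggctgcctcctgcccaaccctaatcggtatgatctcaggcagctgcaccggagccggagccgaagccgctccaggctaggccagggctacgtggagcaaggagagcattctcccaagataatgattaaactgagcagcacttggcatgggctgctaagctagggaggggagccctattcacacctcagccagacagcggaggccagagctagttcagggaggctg
Aqp1, chr6:55336049-55336348, plus strand: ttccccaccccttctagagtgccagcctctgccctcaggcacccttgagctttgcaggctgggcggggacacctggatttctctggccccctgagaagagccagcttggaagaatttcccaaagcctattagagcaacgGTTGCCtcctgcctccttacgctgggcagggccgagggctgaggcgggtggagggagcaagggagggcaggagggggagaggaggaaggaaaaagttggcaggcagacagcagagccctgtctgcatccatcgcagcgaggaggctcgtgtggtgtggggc
The Aqp1 window held GTTGCC from position 140, and the Tmem72 window held neither GTTGCC nor TAATCC, the core recognised by OTX factors. These letters do not allow the motifs to overlap each other. With each searched on both strands, TAATCC was in 4 of the 34 choroid plexus promoters with an entry (11.8%), against 7.16% of all 27025 promoters, and GTTGCC in 5 of the 34 (14.7%), against 12.7% of all.

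Ttr was then compared between the groups, since the ranking did not use them. Mean log2 (CPM + 0.5) was 7.87 ± 3.66 in DKO (SD, n = 7), 5.98 ± 4.65 in KOWT (n = 7) and 4.74 ± 3.88 in WT-DKO libraries (n = 10). Of the 6 pairs compared within an age, none of the 3 older pairs passed two-sided exact permutation tests, with adjusted p = 0.411 for DKO against KOWT, 0.180 for DKO against WT-DKO and 0.577 for KOWT against WT-DKO. In newborn libraries the mean of the 9 TKO libraries was 4.89 ± 1.67, that of the 8 KOWTKO libraries 3.70 ± 0.73 and that of the 8 WT-TKO libraries 6.70 ± 1.68 (SD). KOWTKO lay 3.01 below WT-TKO (exact permutation p = 0.000155, the smallest this design can give, adjusted p = 0.000932). All 8 KOWTKO libraries were below every WT-TKO library. TKO lay 1.81 below WT-TKO and 1.20 above KOWTKO, and neither passed (adjusted p = 0.123 and 0.163, exact permutation tests). On the mean log2 level of the 44 other choroid plexus genes, both did: TKO was 0.37 below WT-TKO (adjusted p = 0.00864) and 0.15 above KOWTKO (adjusted p = 0.0382, exact permutation tests).

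Most calls between groups were shared between fits without and with log2 Ttr as a covariate. DKO against KOWT gave 3347 called genes (20.8%; 10.2% higher and 10.6% lower in DKO) without it and 3481 (21%) with it, 3100 of them shared. DKO against WT-DKO gave 4203 (26.1%; 13.1% higher and 13% lower in DKO) without it and 4202 (25.4%) with it, 3614 shared, and KOWT against WT-DKO gave 711 (4.41%; 2.33% higher and 2.09% lower in KOWT) without it and 839 (5.07%) with it, 689 shared. These comparisons share libraries. Among the 44 choroid plexus genes, Cldn3 was the one called between DKO and KOWT without the covariate, higher in DKO by 0.92 ± 0.27 (adjusted p = 0.0180, edgeR). With it, Cldn3 at 0.89 ± 0.29 and Wfikkn2 at 1.03 ± 0.35 were higher in DKO, and Enpp2 at -0.80 ± 0.28 and Car12 at -0.39 ± 0.10 were lower. Enpp2 still had 135 to 270 CPM in Ttr-poor libraries. In the same fit 8 of 16 oligodendrocyte genes were lower in DKO, against 1724 of all 16537 genes. The part of other cell types in the Enpp2 difference was not tested. Between DKO and WT-DKO, Wfikkn2 (1.91 ± 0.65) and Perp (0.56 ± 0.16) were called without the covariate. With it, these were higher by 0.98 ± 0.33 and 0.46 ± 0.15, and Car12 (-0.44 ± 0.10) and Msx1 (-0.82 ± 0.16) were lower. None was called between KOWT and WT-DKO in either fit.

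Outside the choroid plexus list, the genes below were among those whose group difference moved most with the covariate, out of genes called in either fit with a mean log2 CPM of 1 or more. Mlf1, a centrosomal and ciliary protein gene, was not called between DKO and KOWT without it (-0.29 ± 0.36), and was lower in DKO with it (-0.59 ± 0.19, adjusted p = 0.0244, edgeR). Gmnc, a regulator of multiciliated cells, was -0.64 ± 0.32 without it and -0.95 ± 0.22 with it (adjusted p = 0.00383), and Drc7 was -0.33 ± 0.58 without it and -0.72 ± 0.26 with it (adjusted p = 0.0471). Between DKO and WT-DKO, the poly(A) polymerase gene Tent5c was -0.52 ± 0.28 without it and -0.96 ± 0.13 with it. The lipolactonase gene Pon3 was 0.04 ± 0.40 without it and -0.48 ± 0.17 with it. Over all genes, 10.2% were higher and 10.6% lower in DKO than in KOWT without the covariate. With it, 1757 of 16537 genes were higher and 1724 lower. Of 21 listed ependymal and cilia genes tested, 1 was lower in DKO than in KOWT without the covariate and 1 with it. Of 18 meningeal genes 9 were higher in DKO than in KOWT in each fit, as were 3 of 7 border macrophage genes, and 7 of 16 oligodendrocyte genes were lower without the covariate and 8 with it.

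In the authors' deposited table of DKO over KOWT, 6 of 43 listed choroid plexus genes were higher and none lower at an adjusted p under 0.05, against 30.8% of all genes in either direction. In the authors' deposited table of DKO over WT, 9 of 44 were higher and none lower, against 34.8% of all genes. The authors' deposited tables gave Wfikkn2 a log2 fold change of 1.71 over KOWT and 1.45 over WT, both called. They gave 1500015O10Rik 0.29 over KOWT and 1.59 over WT, and Kcne2 -0.10 over KOWT and 1.48 over WT, each called over WT only. Ttr, counted among the listed genes here, had 0.19 over KOWT and 0.34 over WT and was called in neither.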

How the data were processed

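Raw read counts as whole numbers, deposited by the authors in 1 table, covered 38355 Ensembl genes in 49 libraries. Another 5 lines without a gene were dropped (reads with no feature came to 8.89% to 17.5% per library). Per the labels' protocols, libraries were made with a TruSeq kit, and the tools were CASAVA 1.8.2, STAR 2.3.0e and DESeq2 on build mm10, per the submitters' processing notes. Neither the counter nor the annotation is given in the sources used here. In the authors' deposited comparison tables were log2 fold changes and adjusted p-values, per the file headers, and values from them are named as such. Symbols and positions came from GENCODE M21 (GRCm38) for 36602 genes and from the authors' tables for 151, and 1602 had none.

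Counts were fitted with edgeR 4.0.16 in R 4.3.3 (filterByExpr, TMM, robust quasi-likelihood), with Benjamini-Hochberg adjustment over all genes tested. A gene was called at an adjusted p under 0.05. DESeq2 1.42.0 was an alternative. The fits were tested on simulated data. CPM is the count over reads on genes, in M (mega), and group means of Ttr were taken on log2 (CPM + 0.5). The members, gene lists and comparisons were chosen with earlier results of these data known. Beyond Ttr, the genes given in full were the 12 choroid plexus genes with the highest mean CPM, which is not corrected for length, the 2 most changed of each other list, the 10 most and 10 least changed called genes outside the lists at a mean log2 CPM of 1 or more, the called newborn genes, and the 6 genes per group contrast that moved most with the Ttr covariate. Other genes named in the text were chosen after their values were seen. In a chi-square comparison of counts, every 2 libraries of the same group differed by more than sampling noise.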

Additional observations from a re-analysis of the deposited data

Results flagged for a closer look

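Of 36 sets of 4 to 10 libraries examined, 4 had a library far from the rest by Dixon's criterion. For normally distributed values, chance meets it in about 1 set in 20. That rate need not hold for the Ttr and Enpp2 values below, which are CPM without a log. The Enpp2 set was also chosen by Ttr, with which Enpp2 was higher. Ttr in WT-DKO replicate 9 was 5933 CPM, with the next WT-DKO library at 1918 CPM. Ttr in WT-TKO replicate 7 was 1102 CPM, with the next WT-TKO library at 214 CPM. The mean log2 CPM of the other choroid plexus genes in WT-TKO replicate 7 was 3.36, with the next WT-TKO library at 2.49. Enpp2 in WT-DKO replicate 9 was 2881 CPM, with the next Ttr-rich library at 1535 CPM.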

How the results depend on the processing

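Called genes between Ttr-rich and Ttr-poor libraries numbered 229, against 32 with a replicate block (17 of the 44 choroid plexus genes), 150 for the 6 highest against the 6 lowest, 104 for 3 against 3 within groups, 129 without the libraries low in Sh3gl3 and 95 to 271 leaving out 1 library at a time (lowest without WT-DKO replicate 9). With the block, libraries whose number no other of the 16 carries, such as WT-DKO replicate 9, have no weight in the difference. Few libraries then remain to estimate the spread. The Ttr slope over all 24 older libraries gave 418 called genes, and 89 with the block. Replicate numbers were not taken to pair the samples, since not every same-numbered correlation was over 0.1. That of same-numbered deviations between DKO and KOWT ran from -0.01 to 0.56 and reached at most 0.362 between other groups. For DKO and KOWT replicates 5, 6 and 7 it was 0.453, 0.56 and 0.528. The medians of these DKO libraries with the other KOWT numbers were -0.00597, -0.0694 and -0.158. The newborn slope gave 12 called genes, against 38 with DESeq2 (24 positive, 14 negative), 20 with the replicate block (11 positive, 9 negative, 6 of them choroid plexus genes and 6 shared with the 12), 23 with the mean of the other choroid plexus genes in place of Ttr, 31 without the group covariate, 5 without the 2 libraries highest in Ttr, 1 in TKO and KOWTKO alone, 3 in WT-TKO alone and 4 to 26 leaving out 1 library at a time (without WT-TKO replicate 7 and without TKO replicate 7). With only the 16 Ttr-rich and Ttr-poor libraries, DKO against KOWT gave 299 called genes, DKO against WT-DKO 688 and KOWT against WT-DKO 229. DKO against KOWT gave 1082 without the libraries low in Sh3gl3. On the mean of the other choroid plexus genes, the difference of TKO from KOWTKO was 0.15 and that of TKO from WT-TKO was -0.37, both now past the threshold. Other values for these results kept their direction and side of the threshold or stayed within 1.5 times the count, in 91 cases. The cause was not tested. The 9 against 15 split, the fits on some groups only, the newborn fit without KOWTKO replicates 3 and 7 and leaving out 1 library at a time were chosen after seeing the data.

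Across the alternative fits, 278 values of genes no longer passed the threshold, 42 newly passed it and 1970 kept their direction and side of it. Signs turned for 28 values of genes, none of them past the threshold on both sides of 0. Slc29a4 between Ttr-rich and Ttr-poor libraries was -0.0203 without the filter on low counts, -0.20 with the block, -0.12 without the libraries low in Sh3gl3 and -0.15 to 0.11 leaving out 1 library. Without the group covariate Tagln was -0.0484, Cbr2 0.0684, Hbb-bs -0.19, Hbb-bt -0.41 and Stmn2 0.0411. Tagln was -0.0855 with the block, Enpp6 -0.0114 for 3 against 3 and Sh3gl3 -0.37 with the myelin mean as a covariate. Leaving out 1 library, Hbb-bs ran from -0.34 to 0.51, Hbb-bt from -0.0664 to 0.35 and Sh3gl3 from -0.32 to 0.44. Between DKO and KOWT, Enpp2 was 0.19 without the libraries low in Sh3gl3. Between DKO and WT-DKO, Pon3 was -0.48 with the Ttr covariate, -0.35 with the mean of the other choroid plexus genes and -0.67 in the 16 libraries, and Slc37a2 was -0.39, -0.30 and -0.62 in the same fits. There Mlf1 was 0.15 with the block and 0.00682 without the libraries low in Sh3gl3, and Gm6472 was -0.0166 without them too. Depth was 13.1 to 57.0 M (mega) reads on genes, and levels under 1 CPM rest on few reads.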
